A study of Rattus norvegicus with 6 samples.

Results

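The genes described here, apart from 2 pseudogenes, encode protein subunits and close partners of the mitochondrial respiratory chain and ATP synthase in rat aorta. A gene was a member if its array annotation gave 1 symbol that began with Nduf, Uqcr or Atp5, or with Cox and a digit from 4 to 8, or that named a succinate dehydrogenase subunit, Cyc1 or Cycs. Of the 14324 genes with a single symbol on the array, 81 met the rule, and every one of them was tested. By complex they fell into 33 genes of complex I, 3 of its assembly factors, 4 of complex II, 7 of complex III, 17 of complex IV, 16 of complex V and cytochrome c. These counts include the pseudogenes Ndufs6-ps1, in complex I, and Cox6c-ps1, in complex IV. Ndufa4, which carries a complex I name, was counted with complex IV, where its protein is found.

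RNA came from aortic rings of male Fisher 344 rats aged 1 to 2 months. The day 1 group was rings embedded in collagen gel and grown for 1 day in serum-free EBM medium, and the day 0 group was rings taken straight after harvest. Each group held 3 arrays, and each array was made from 200 ng of RNA pooled from 4 to 6 rings or cultures. Both kinds of sample were washed and snap frozen before extraction, and the groups differ in culture, in the gel and in the time since harvest together. Values are log2 expression values, so a difference of 1 is a doubling. Each change is the day 1 mean minus the day 0 mean over 3 arrays a group, followed by its standard error after ±. This standard error is the moderated one of limma, in which the variance of each gene is drawn towards a value shared by all genes.

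The respiratory chain passes electrons from NADH, at complex I, and from succinate, at complex II, through ubiquinone to complex III, then through cytochrome c to complex IV, where oxygen is reduced. Complexes I, III and IV pump protons across the inner mitochondrial membrane, and complex V, the ATP synthase, lets them back to make ATP. Most subunits are encoded in the nucleus, as are all those described here, and nuclear factors such as NRF1, GABP and the estrogen-related receptors are known to act on many of their promoters.

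The promoters of 5 members are shown, since they belong to members that changed in opposite directions. Each is the 250 bases before the annotated start in RefSeq (GRCr8), written 5′ to 3′ on the gene's strand. Capitals mark matches on either strand to the NRF1 palindrome (as seen in capitals in Atp5mc2, with any base at its variable position), CCGGAAG for ETS factors such as GABP, AAGGTCA for estrogen-related receptors or AAGATGGC for YY1. Atp5if1 (chr5:150026678-150026927, minus strand), Atp5mc2 (chr7:135678219-135678468, minus strand) and Uqcrc2 (chr1:184598990-184599239, plus strand) rose. Atp5me (chr14:1464610-1464859, plus strand) and Sdhd (chr8:59850642-59850891, minus strand) fell.
Atp5if1: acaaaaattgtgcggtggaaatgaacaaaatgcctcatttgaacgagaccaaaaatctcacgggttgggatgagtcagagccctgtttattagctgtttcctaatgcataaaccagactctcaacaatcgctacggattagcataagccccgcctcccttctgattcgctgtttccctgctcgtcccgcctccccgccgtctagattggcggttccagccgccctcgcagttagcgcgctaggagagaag
Atp5mc2: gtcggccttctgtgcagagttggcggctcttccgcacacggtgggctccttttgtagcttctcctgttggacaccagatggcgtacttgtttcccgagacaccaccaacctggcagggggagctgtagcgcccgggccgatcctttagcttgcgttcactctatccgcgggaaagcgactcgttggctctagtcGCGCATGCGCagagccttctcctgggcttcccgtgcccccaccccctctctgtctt
Uqcrc2: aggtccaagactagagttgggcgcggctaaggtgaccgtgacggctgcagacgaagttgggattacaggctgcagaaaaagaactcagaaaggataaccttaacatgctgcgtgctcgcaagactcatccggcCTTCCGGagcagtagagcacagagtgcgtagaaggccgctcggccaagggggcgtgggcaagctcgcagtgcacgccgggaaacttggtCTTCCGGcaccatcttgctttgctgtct
Atp5me: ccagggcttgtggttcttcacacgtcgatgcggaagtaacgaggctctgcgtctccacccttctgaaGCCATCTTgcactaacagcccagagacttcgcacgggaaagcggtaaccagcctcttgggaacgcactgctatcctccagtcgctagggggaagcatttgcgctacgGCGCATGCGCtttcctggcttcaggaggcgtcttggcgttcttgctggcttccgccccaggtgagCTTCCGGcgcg
Sdhd: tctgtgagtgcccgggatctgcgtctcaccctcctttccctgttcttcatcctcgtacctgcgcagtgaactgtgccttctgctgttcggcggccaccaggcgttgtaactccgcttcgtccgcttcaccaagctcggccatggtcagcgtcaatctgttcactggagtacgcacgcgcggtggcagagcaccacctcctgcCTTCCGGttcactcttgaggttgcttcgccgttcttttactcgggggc
The NRF1 letters stand in a promoter of a member that rose (Atp5mc2) and of one that fell (Atp5me), and the same holds for the ETS letters in Uqcrc2 and in Atp5me and Sdhd. None of the searched letters are in the Atp5if1 window. Of 71 members with a promoter in the table, 11 (15.5%) held the NRF1 letters, against 1145 of all 27457 promoters (4.17%). The set of all promoters was not limited to genes on the array or matched to the members' expression level. The ETS letters stood in 20 members (28.2%), against 7.74% of all promoters. The estrogen-related receptor letters stood in 7 members (9.86%), against 3.77% of all promoters, and the YY1 letters in 2 (2.82%), against 1.69%. By direction, the NRF1 letters stood in 2 of 7 members that rose, 2 of 15 that fell and 7 of 49 that did not pass. The ETS letters stood in 1 of 7, 3 of 15 and 16 of 49 in the same order, the estrogen-related receptor letters in 0 of 7, 3 of 15 and 4 of 49, and the YY1 letters in 0 of 7, 1 of 15 and 1 of 49. A match of letters is a description and does not show that a factor binds there.

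After 1 day of culture most respiratory chain genes stood close to their day 0 level, and a small number moved in opposite directions within the same complexes. By limma with Benjamini-Hochberg adjustment over all genes, 7 members rose and 18 fell at an adjusted p under 0.05. Together these 25 of 81 made up 30.9%, where 48.3% of all genes passed (27.6% rising and 20.7% falling). In pooled tissue RNA, fewer cells of a type and less RNA per cell cannot be told apart. With quantile normalization 5 members rose and 26 fell, and without day 0 replicate 1 the number that fell was 11. The median log2 change of the members was -0.05, against -0.01 for all genes, and their median absolute change was 0.11, against 0.23. The members' median moderated standard error, 0.066, was not larger than that of all genes, 0.079.

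Only Atp5if1, Cox6b2 and Cox8b reached a 1.5-fold change in the main comparison, 3.7% of the members, against 18.9% of all genes. Day 1 and day 0 arrays occupied separate ranges in 41 of the 81 members, against 56.9% of all genes. Of the 56 members that missed the threshold, 55 had a 95% confidence interval of the log2 change inside 0.5 in either direction, so changes beyond that size were outside their intervals. The exception was Ndufa10, an accessory subunit of complex I, whose interval ran from -0.54 to 0.35. Over all members that band held 70 intervals (86.4%), against 58.0% of all genes. Most members, 68 of 81, were among the 25% of genes with the highest mean value. In a fit restricted to genes at or over the median mean, 31 of 73 members passed (42.5%), against 74.7% of the genes in that fit.

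**Figure D1:**
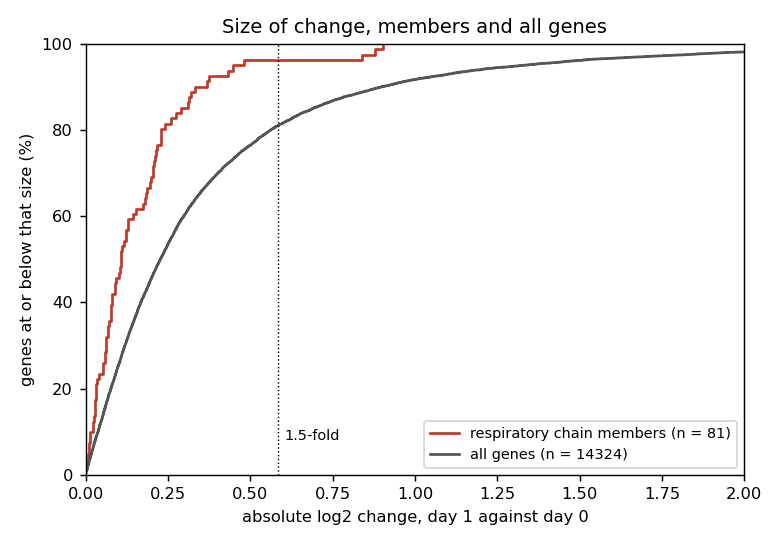
Cumulative share of genes (vertical axis, %) by absolute log2 change between day 1 and day 0 (horizontal axis, cut at 2), for the 81 respiratory chain members and all 14324 genes. The members' curve lies above that of all genes, and 3.7% of members against 18.9% of all genes lie past the dotted 1.5-fold line.

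The plot of change by complex shows that the direction differed between complexes and within them. Complex II had the most one-sided counts, with 3 of 4 members lower, whereas complex III had members past the threshold on both sides. Complexes were compared by description only, since subunits of a complex are not replicates.

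**Figure D2:**
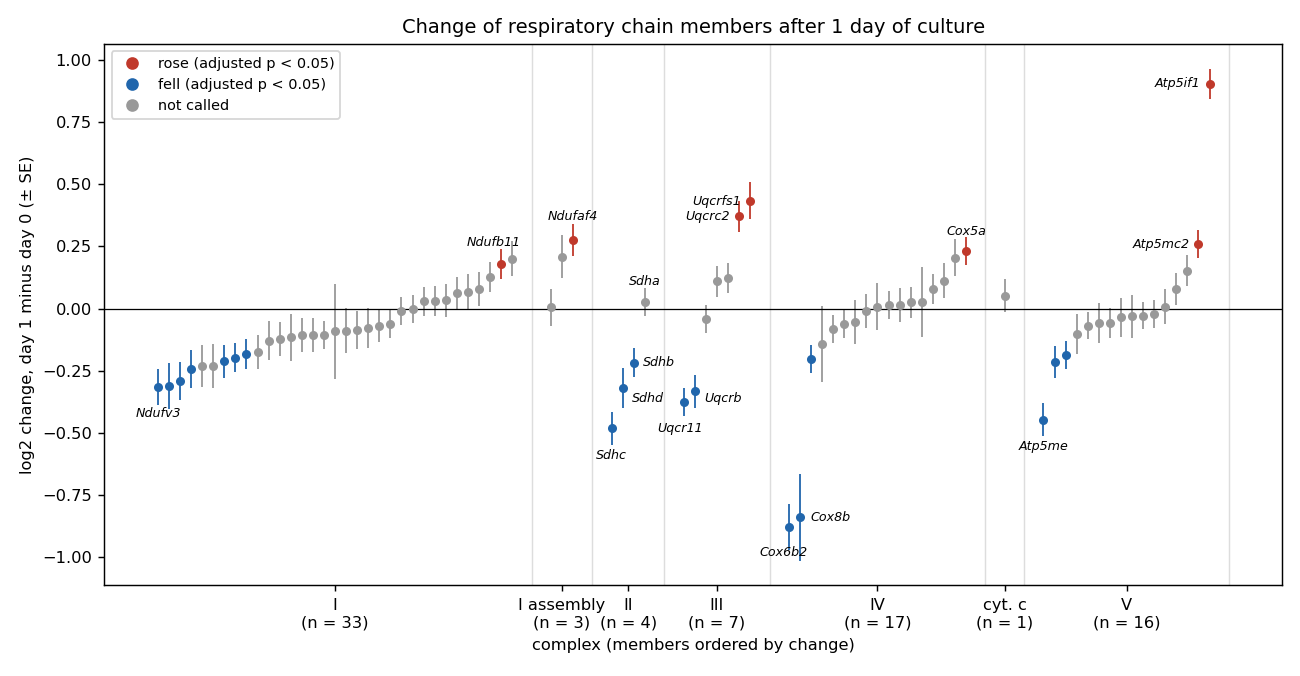
Log2 change (day 1 minus day 0, vertical axis) of each of the 81 members, ordered by change within its complex. Bars are moderated standard errors from limma, n = 3 arrays per group. Red points rose and blue points fell at an adjusted p under 0.05, and Atp5if1 at 0.90 and Cox6b2 at -0.88 are the extremes.

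Complex I, the NADH dehydrogenase, had 7 of 33 members that fell and 1 that rose, with a median change of -0.09 and a range of -0.31 to 0.20. Its count of calls was sensitive to single arrays, at 5 without day 0 replicate 2 or day 1 replicate 3, 4 without day 0 replicate 1 or day 1 replicate 2, and 3 without day 0 replicate 3. Of the catalytic core subunits, which hold the flavin and iron-sulfur centers, 2 of 6 measured fell. Ndufv2, a core subunit with an iron-sulfur center, had log2 values of 9.34, 9.69 and 9.53 on day 1, against 9.78, 9.88 and 9.83 on day 0. All day 1 arrays of Ndufv2 lay below all day 0 arrays, the change was -0.31 ± 0.09 (adjusted p = 0.0235), and the call was lost without day 0 replicate 2 or 3 or without day 1 replicate 1 or 3. Ndufs3, another core subunit, fell by 0.21 ± 0.07 (adjusted p = 0.0295), a call lost with the replicate block (the replicate number as a term in the fit) and without day 0 replicate 1 or 2 or day 1 replicate 1 or 2. The flavin-binding core subunit Ndufv1 was at 0.07 ± 0.07 and Ndufs1, the largest iron-sulfur subunit, at -0.00 ± 0.06.

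Among accessory subunits of complex I, Ndufv3 had the lowest change. Its values were 8.49, 8.57 and 8.43 on day 1, against 8.70, 8.85 and 8.88 on day 0, a change of -0.31 ± 0.07 (adjusted p = 0.00779) that passed in each of 15 refits with other settings or without 1 array. Ndufb10 fell by 0.29 ± 0.08 (adjusted p = 0.0151), Ndufs4, a subunit of the NADH-oxidizing arm, by 0.24 ± 0.08 (adjusted p = 0.0289) and Ndufb2 by 0.18 ± 0.06 (adjusted p = 0.0349). Leaving out 1 array ended the call of Ndufb10 (day 0 replicate 3), of Ndufs4 (any but day 1 replicate 1) of Ndufb2 (day 0 replicate 1 or 3, day 1 replicate 1 or 3) and of Ndufs6-ps1 (day 0 replicate 2 or 3, day 1 replicate 1 or 2), and the replicate block ended that of Ndufb2. The row annotated Ndufs6-ps1, a pseudogene of a complex I subunit, fell by 0.20 ± 0.06, and its probes may also detect the coding gene. Ndufb11, an accessory subunit of the membrane arm, had values of 9.79, 9.88 and 9.87 on day 1, against 9.62, 9.67 and 9.71 on day 0. It rose by 0.18 ± 0.06 (adjusted p = 0.0401), a call lost with quantile normalization (a change of 0.05, adjusted p = 0.546), with median centring, with the replicate block (adjusted p = 0.0559) and without any array but day 1 replicate 1. Ndufa6, at 0.20 ± 0.07, lay just outside the threshold (adjusted p = 0.0501). The other 24 members of complex I did not pass and had changes between -0.23 and 0.13. Some of these passed in refits: Ndufa1 as a fall in 8 of 15, Ndufa3 in 7 and Ndufs7 in 6. Ndufa6 passed as a rise in 7. Of the 3 assembly factors with Ndufaf names, Ndufaf4 rose by 0.27 ± 0.06 (adjusted p = 0.00782), with 7.85, 7.96 and 7.90 on day 1, against 7.56, 7.66 and 7.66 on day 0. Under quantile normalization Ndufaf4 did not pass (adjusted p = 0.0903). Ndufaf1 stood at 0.21 ± 0.09 (adjusted p = 0.0845) and Ndufaf3 at 0.00 ± 0.07.

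Complex II, succinate dehydrogenase, is both an enzyme of the tricarboxylic acid cycle and an entry point of the chain, and it has 4 subunits. The membrane anchor genes Sdhc and Sdhd and the iron-sulfur subunit gene Sdhb fell, while the flavoprotein gene Sdha did not pass. Sdhc had values of 10.46, 10.40 and 10.30 on day 1, against 10.90, 10.81 and 10.88 on day 0. Every day 1 array of Sdhc lay below every day 0 array, and the gene fell by 0.48 ± 0.07 (adjusted p = 5.44e-04), or 1.40-fold. Sdhd had 10.11, 9.95 and 9.83 on day 1, against 10.26, 10.30 and 10.28 on day 0, a change of -0.32 ± 0.08 (adjusted p = 0.0115). Sdhb fell by 0.22 ± 0.06 (adjusted p = 0.0160), and missed the threshold without day 0 replicate 1 or day 1 replicate 1, with adjusted p at most 0.0518. Sdha, the catalytic subunit, had 9.92, 9.96 and 9.91 on day 1, against 9.92, 9.92 and 9.86 on day 0. Its groups overlapped, and the 95% interval of its change ran from -0.10 to 0.16. That the change of Sdha differed from those of the other 3 genes was not tested.

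Complex III, which oxidizes ubiquinol and reduces cytochrome c, had calls in both directions. Of the core subunits and the Rieske protein 2 of 3 rose, and of the small subunits 2 of 4 fell, a difference between the kinds of subunit that was not tested. Uqcrfs1, the Rieske iron-sulfur protein, had 9.36, 9.24 and 9.13 on day 1, against 8.84, 8.81 and 8.77 on day 0, a rise of 0.43 ± 0.07 (adjusted p = 0.00173). Uqcrc2, a core subunit, had 9.99, 10.09 and 10.07 on day 1, against 9.71, 9.63 and 9.70 on day 0, a rise of 0.37 ± 0.06 (adjusted p = 0.00141). In both genes all day 1 arrays were above all day 0 arrays, and both genes passed in each of the 15 refits.

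The small subunits Uqcr11 and Uqcrb fell. Uqcr11 had 9.81, 9.80 and 9.87 on day 1, against 10.21, 10.19 and 10.20 on day 0, a change of -0.37 ± 0.06 (adjusted p = 8.47e-04). Uqcrb, which helps to form the ubiquinone site, had 11.20, 11.30 and 11.35 on day 1, against 11.61, 11.56 and 11.67 on day 0, a change of -0.33 ± 0.07 (adjusted p = 0.00377). Uqcrb had 3 rows on the array, with changes of -0.33, -0.34 and -0.36. The remaining members did not pass, with the core subunit Uqcrc1 at 0.11 ± 0.06, the hinge protein Uqcrh at 0.12 ± 0.06 and Uqcrq at -0.04 ± 0.06. Cytochrome c itself (Cycs), the carrier between complexes III and IV, was at 0.05 ± 0.07 (adjusted p = 0.554), with overlapping groups.

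**Figure D3:**
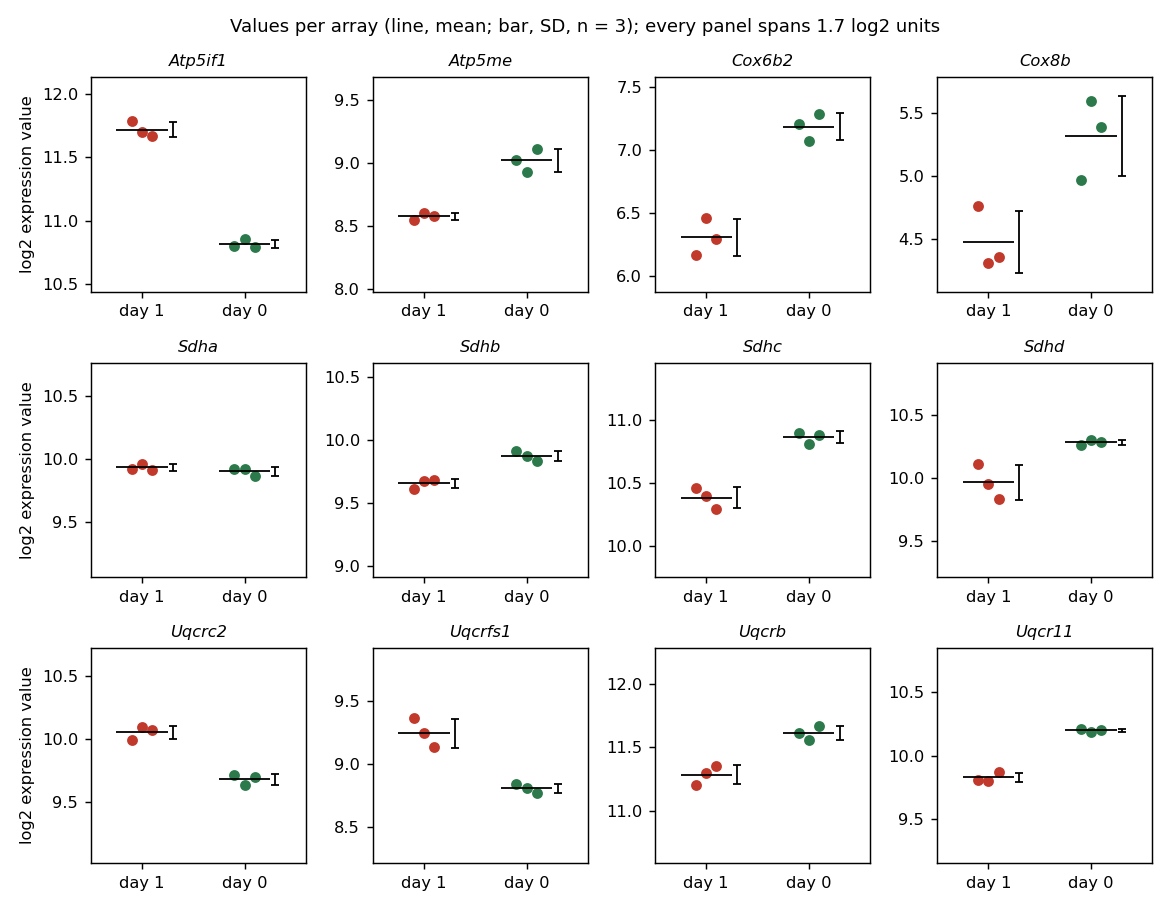
Log2 expression values (vertical axis) of 12 members on each of the 3 day 1 and 3 day 0 arrays; lines are group means and bars SD, and every panel spans the same range. Atp5if1, Uqcrc2 and Uqcrfs1 are higher on day 1, Sdha overlaps between the groups, and the other 8 genes are lower on day 1.

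Complex IV, cytochrome c oxidase, has subunits that exist as tissue forms, and its 2 largest falls were in such forms. Cox6b2, known as the testis form of subunit 6B, had 6.17, 6.46 and 6.29 on day 1, against 7.20, 7.07 and 7.28 on day 0. The groups did not overlap, and it fell by 0.88 ± 0.09 (adjusted p = 1.11e-04), or 1.84-fold. Cox8b, the form of subunit 8 found in heart, skeletal muscle and brown fat, had 4.76, 4.31 and 4.36 on day 1, against 4.97, 5.59 and 5.39 on day 0. It fell by 0.84 ± 0.17 (adjusted p = 0.00468) with SD of 0.24 on day 1 and 0.32 on day 0, and its mean stood at percentile 25.3 of all gene means, and the table gives no measure of background.

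The general forms of the same enzyme stood near their day 0 levels. Outside the tissue forms and a pseudogene row, 1 of 11 complex IV members rose, 1 fell and all 11 intervals lay within 0.5. Cox8a, the general form of subunit 8, was at -0.06 ± 0.06, Cox4i1 at 0.01 ± 0.06, Cox6a1 at -0.08 ± 0.06 and Cox7a2 at -0.01 ± 0.07. Cox5a, a subunit on the matrix side of the enzyme, had 10.74, 10.72 and 10.70 on day 1, against 10.53, 10.48 and 10.47 on day 0. It rose by 0.23 ± 0.06 (adjusted p = 0.0103), and its second row gave 0.23 as well. Ndufa4 had 11.66, 11.67 and 11.62 on day 1, against 11.89, 11.84 and 11.83 on day 0, a change of -0.20 ± 0.06 (adjusted p = 0.0185) that missed the threshold without day 0 replicate 1 or day 1 replicate 3. Cox7a2l, a factor that joins complexes III and IV in supercomplexes, was at 0.20 ± 0.07 and just missed the threshold (adjusted p = 0.0519). The form of subunit 4 known from lung, Cox4i2, was at 0.03 ± 0.14, the heart and muscle form Cox6a2 at 0.02 ± 0.06 and the testis form Cox8c at -0.14 ± 0.15, each with overlapping groups.

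For 3 pairs of alternative forms the difference of log2 values within each array was compared between the groups by an exact two-sided permutation test, which with 3 arrays against 3 cannot go below a p of 0.1. Cox8b relative to Cox8a changed by -0.78, with SD of 0.22 on day 1 and 0.31 on day 0 (exact permutation p = 0.1, adjusted p = 0.3 over the 3 pairs), and no day 1 array overlapped day 0. Cox6a2 relative to Cox6a1 differed by 0.11 (exact permutation p = 0.2, adjusted p = 0.3) and Cox4i2 relative to Cox4i1 by 0.01 (exact permutation p = 1). No pair passed, and 3 other pairs were not analysed here.

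Marker lists of cell types known to carry Cox8b had lower sums on day 1, but most genes on each list did not pass. A sum of unlogged values is weighted to the genes with the highest values. Over all genes 27.6% rose and 20.7% fell, the shares to set beside the marker counts that follow. Of 5 measured brown adipocyte markers 2 fell, with the uncoupling protein gene Ucp1 at -3.13 ± 0.21 and the deiodinase gene Dio2 at -2.25 ± 0.08. The unlogged values of the 5 summed to 140.6 to 159.8 on day 1, against 506.9 to 587.8 on day 0. Of 13 skeletal and cardiac muscle markers 4 fell, 1 rose (the myosin gene Myh1, by 0.955 ± 0.148) and 8 did not pass, with a median of -0.17. Their sums were 579.7 to 616.8 on day 1, against 2794 to 2878 on day 0, and the highest day 0 values among them were those of the skeletal actin gene Acta1 (6.76 on day 1, against 10.92 on day 0) and the creatine kinase gene Ckm (6.79 on day 1, against 8.83 on day 0). All 7 measured markers of contractile smooth muscle, the labelled tissue's main cell type, fell, with sums of 3157 to 3575 on day 1, against 31000 to 31890 on day 0. The smooth muscle marker Myh11 averaged 10.64 on day 1, against 13.03 on day 0. Of the other lists, 5 of 8 white adipocyte markers fell, with sums of 560.5 to 637.4 on day 1, against 821.4 to 903.4 on day 0, and 4 of 6 pericyte markers fell and 1 rose. Macrophage markers rose in 3 of 6 cases and fell in 2, with sums of 3663 to 4019 on day 1, against 2280 to 2359 on day 0. Fibroblast markers rose in 3 of 5 cases and fell in 2, with sums of 29440 to 30630 on day 1, against 27200 to 28350 on day 0. Endothelial markers rose in 3 of 4 cases and fell in 1, with overlapping sums. No value of any marker was at 0. The lowest value over all rows of the array was 1.32, so this does not show that each marker was detected. The part of these shifts in the falls of Cox8b and Cox6b2 was not tested.

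Complex V, the ATP synthase, had 2 of 16 members that rose and 3 that fell, with a median of -0.03. Its calls numbered 3 without day 0 replicate 1, day 1 replicate 1 or day 1 replicate 2. Atp5if1, the inhibitory factor that binds the catalytic head when the proton gradient fails, had the largest change of any member. Its values were 11.79, 11.70 and 11.67 on day 1, against 10.80, 10.85 and 10.79 on day 0. All day 1 arrays stood far above all day 0 arrays, and the rise was 0.90 ± 0.06 (adjusted p = 9.99e-06), or 1.87-fold, with a range of 0.84 to 0.93 over the 15 refits.

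Subunits of the synthase proper had smaller changes. In the catalytic head and central stalk 1 of 5 fell, namely the epsilon subunit Atp5f1e at -0.22 ± 0.06 (adjusted p = 0.0242; lost without day 0 replicate 1 or 2 or day 1 replicate 1 or 2), while the catalytic beta subunit Atp5f1b was at -0.07 ± 0.05 and the alpha subunit Atp5f1a at -0.02 ± 0.06. The proton-carrying c ring is made from 3 genes that encode the same mature protein, of which 1 rose and 1 fell. Atp5mc2 had 10.81, 10.82 and 10.87 on day 1, against 10.56, 10.54 and 10.60 on day 0, a rise of 0.26 ± 0.06 (adjusted p = 0.00613). A second row of the gene changed by 0.18. In the limma fit over all rows that row had an adjusted p of 0.0764, against 0.0128 for the row used. Atp5mc3 had 10.66, 10.67 and 10.68 on day 1, against 10.86, 10.83 and 10.88 on day 0, a change of -0.19 ± 0.06 (adjusted p = 0.0234) that missed the threshold without day 0 replicate 1 or 3 or day 1 replicate 1 or 2. Atp5mc1 was at -0.03 ± 0.09, with overlapping groups.

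Of the small membrane subunits of complex V, Atp5me, the e subunit that helps synthase dimers to form, had 8.55, 8.60 and 8.58 on day 1, against 9.02, 8.93 and 9.11 on day 0. It fell by 0.45 ± 0.07 (adjusted p = 7.97e-04). Atp5mg and Atp5mk, of the same region, were at -0.06 ± 0.06 and 0.01 ± 0.07. In the peripheral stalk 0 of 4 genes passed by limma, with changes from -0.10 to 0.15. Before adjustment 1 of them, Atp5pd, was under 0.05. The rows of Atp5pd differed in sign, at 0.15 and -0.08. Among 11 members with several rows, the rows of 8 had the same sign.

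Genes that build, regulate and supply the chain were read from lists that hold no member of the rule. Of 86 such genes measured, 35 rose and 12 fell, 54.7% in all, with a median of 0.15, where 48.3% of all genes passed. Factors for complex IV assembly and copper delivery rose in 8 of 14 cases and fell in 1. Of these, Coa3 and Cox15 were lost with quantile normalization and without any 1 of several arrays (Coa3 all but day 0 replicate 1, Cox15 day 0 replicate 1 or 3 or day 1 replicate 1 or 2), and Higd1a with quantile normalization. They included Lrpprc, which stabilizes mitochondrial messenger RNA (0.69 ± 0.06), Coa7 (0.48 ± 0.08) and Higd2a (0.40 ± 0.07). Other complex I assembly factors rose in 3 of 6 cases, with Tmem126b at 0.46 ± 0.07, Acad9 at 0.43 ± 0.07 and Tmem70 at 0.25 ± 0.08. The call of Tmem70 was lost with quantile normalization (adjusted p = 0.151), with centring (adjusted p = 0.0570) and without day 0 replicate 2 or 3 or day 1 replicate 1 or 2. Assembly factors of complexes II and III rose in 1 and fell in 2 of 10 cases. Sdhaf2, which attaches flavin to Sdha, had 8.83, 8.82 and 8.70 on day 1, against 9.31, 9.32 and 9.34 on day 0, a change of -0.54 ± 0.06 (adjusted p = 1.95e-04). Ttc19, the other fall, was at -0.25 ± 0.07 and was lost without any array but day 0 replicate 3. Sdhaf3, an assembly factor for the iron-sulfur subunit, rose by 0.51 ± 0.12 (adjusted p = 0.00743). The ATP synthase assembly genes Atpaf1 and Atpaf2 rose by 0.29 ± 0.10 and 0.20 ± 0.07, and Fmc1 fell by 0.23 ± 0.08. None of these 3 calls was stable: Atpaf1 was lost with quantile normalization, with centring and without day 0 replicate 2 or 3 or day 1 replicate 1 or 2. Atpaf2 was lost with quantile normalization, centring, the replicate block (adjusted p = 0.0538) and without any array but day 0 replicate 2. Fmc1 was lost with the replicate block (adjusted p = 0.0557) and without day 0 replicate 1 or 3 or day 1 replicate 1 or 3.

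Over all genes 27.6% rose and 20.7% fell, the shares to set beside the counts in these lists. Coenzyme Q genes rose in 4 of 12 cases and fell in 1, or 41.7% in all. The rise of Coq5 was lost with quantile normalization, centring, the replicate block and without any array but day 1 replicate 3. Coq10a, a ubiquinone-binding protein, rose by 0.82 ± 0.08, the kinase-like genes Coq8b and Coq8a by 0.74 ± 0.07 and 0.62 ± 0.11, and Coq10b fell by 0.38 ± 0.07. Carriers, porins and uncoupling proteins rose in 4 of 9 cases and fell in 2, with the ATP/ADP exchanger Slc25a5 at 0.39 ± 0.06 and the porin Vdac1 at 0.35 ± 0.06, and the falls were those of Ucp1, given above, and Ucp3 at -0.57 ± 0.07. Ucp3 had low values, averaging 4.40 on day 1, against 4.97 on day 0, and its mean stood at percentile 22.1 of all gene means. All 6 genes for kinases and phosphatases of pyruvate dehydrogenase passed, 5 upward. Of these, Pdk2 and Pdk3 were lost with quantile normalization, with centring and without day 0 replicate 2 or 3 or day 1 replicate 1 or 2, and Pdk2 also with the replicate block and without day 1 replicate 3. The kinase gene Pdk1 rose by 0.56 ± 0.08 and Pdk4 by 0.45 ± 0.11. The phosphatase genes went in opposite directions: Pdp2 fell by 0.50 ± 0.07, and Pdp1 rose by 0.39 ± 0.06 and passed in each of the 15 refits. Other enzymes that feed ubiquinone rose in 3 of 8 cases, with Sqor at 0.54 ± 0.07, Etfa at 0.51 ± 0.06 and Gpd2 at 0.44 ± 0.06.

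Regulators of mitochondrial biogenesis and of mitochondrial DNA expression rose in 5 and fell in 4 of 17 cases. Together these were 52.9%, where 48.3% of all genes passed. Perm1, a regulator of oxidative genes in muscle, had 4.68, 4.46 and 5.17 on day 1, against 6.72, 6.50 and 6.73 on day 0, a change of -1.88 ± 0.17 (adjusted p = 4.90e-05). The coactivator gene Ppargc1b averaged 6.15 ± 0.15 on day 1, against 7.66 ± 0.13 on day 0 (SD, n = 3 each), a change of -1.51 ± 0.10 (adjusted p = 8.40e-06). The receptor gene Esrrg fell by 0.88 ± 0.07, and Ppargc1a, at -0.42 ± 0.15, missed the threshold (adjusted p = 0.0539). Tfam, which packages mitochondrial DNA, had 8.52, 8.47 and 8.45 on day 1, against 7.61, 7.78 and 7.85 on day 0, a rise of 0.74 ± 0.08 (adjusted p = 9.80e-05), and the transcription factor gene Tfb2m rose by 0.78 ± 0.10 and the helicase gene Twnk by 0.57 ± 0.06. Tfb1m, a ribosomal RNA methyltransferase, fell by 0.42 ± 0.07. The nuclear factor genes Nrf1 and Gabpa were at -0.09 ± 0.06 and 0.15 ± 0.06 and did not pass. The 13 mitochondrially encoded subunits were not analysed here.

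**Figure D4:**
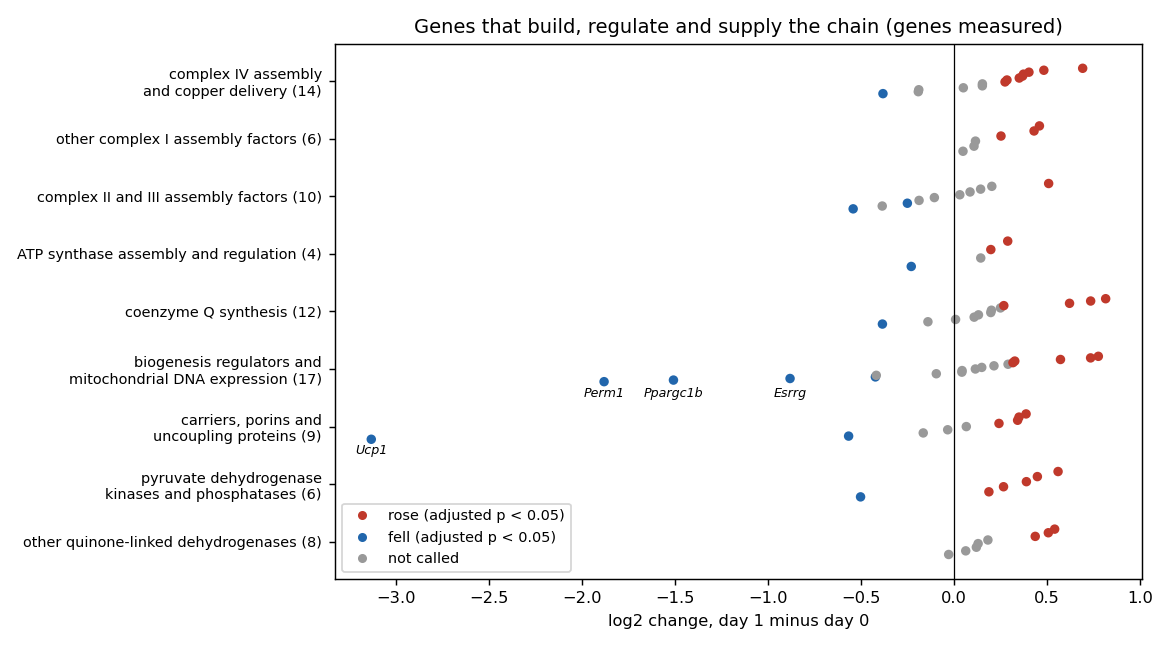
Log2 change (day 1 minus day 0, horizontal axis) of 86 genes in 9 lists around the respiratory chain, 1 list per line with its number of measured genes; red points rose and blue points fell at an adjusted p under 0.05. Ucp1, Perm1, Ppargc1b and Esrrg lie furthest to the left, and the rises end at 0.82 for Coq10a.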

How the data were processed

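RNA of 6 pooled samples was hybridised to whole-transcript arrays after Affymetrix sense labelling, per the labels' protocols. The deposited table holds log2 expression values made by the authors for 27342 rows, with the scale inferred from a range of 1.32 to 14.16. Limma is named in the submitters' processing notes. How background was corrected and probes were summarised or normalized are steps not given in the sources used here. Values entered the tests unscaled (array medians 5.87 to 5.95). The number of arrays limits the precision.

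Rows were named by GEO's array annotation, with symbols updated by gene ID (15067 of 15097 rows with 1 symbol) or accession (6) through a RefSeq gene table (GRCr8). A row with several symbols (323 rows) or no symbol (11922 rows) was not used. The highest-mean row was kept per gene. Day 1 was tested against day 0 over all genes by limma 3.58.1 (R 4.3.3, lmFit with eBayes, two-sided). The fit was also run on simulated data in which only a small share of genes changed. That run checks the code and does not bear on the calls here. Tables and figures used Python 3.11.15, pandas 2.3.3, numpy 2.4.6 and matplotlib 3.10.9. Arrays are biological replicates by label, with no tie from pools to animals given. Each limma p-value therefore reflects how far these pools varied, in the gene itself and, through the moderated variance, over all genes.

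The members, lists and tests were chosen with earlier results of these data known. Named genes were up to 4 rises and 4 falls per complex past the threshold, the paralogue forms, Sdh, Cycs and c ring genes, up to 3 genes per supporting list, and defining markers; other genes named were chosen after their values were seen.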

Additional observations from a re-analysis of the deposited data

How the results depend on the processing

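The fit was repeated with quantile normalization or median centring, without the dimmest 25% of genes or those under the median mean, with other choices of row per gene, with all rows, with a trend of variance on intensity and a robust prior, with array weights, at an adjusted p of 0.01, with other membership or grouping rules, with a replicate block, and leaving out single arrays. Of the 25 calls, 13 held at an adjusted p under 0.05 in every refit of the genes that tested the gene (15 refits; 14 for Cox6b2 and Cox8b, which the median-mean filter removed): the rises of Atp5if1, Uqcrfs1, Uqcrc2, Atp5mc2 and Cox5a and the falls of Cox6b2, Cox8b, Sdhc, Sdhd, Atp5me, Uqcr11, Uqcrb and Ndufv3. No called member changed sign in these refits. Of the 56 members that missed the threshold in the main fit, 15 passed in at least 1 refit. Members that rose numbered 12 without genes under the median mean and 12 with the intensity trend, against 7, and 6 to 8 with 1 array left out. Members that fell numbered 7 at an adjusted p of 0.01, and 11 to 15 with 1 array left out, against 18. Complex I had 14 calls with quantile normalization, 13 without genes under the median mean and 13 with the trend, against 8, and 3 to 6 with 1 array left out. Its assembly factors had 0 calls with quantile normalization and 2 in both of the other settings, against 1, and 1 to 2 with 1 array left out. Complex V had 3 to 5 calls with 1 array left out, against 5. The pair difference of Cox4i2 and Cox4i1 was -0.018 with quantile normalization and -0.171 to 0.128 with 1 array left out, against 0.013. The sign turned in at least 1 refit for 24 members, 0 of them among the 25 calls. They included Sdha (-0.071 with quantile normalization, -0.036 with centring), Cycs (-0.000 and -0.012), Cox4i1 (-0.019 and -0.051) and Cox4i2 (-0.037 in both). With 1 array left out, Cox4i1 ran from -0.009 to 0.026, Cox4i2 from -0.147 to 0.118, Atp5mc1 from -0.113 to 0.048, Cox6a2 from -0.007 to 0.056 and Cox7a2 from -0.050 to 0.023. Centring gave Cox6a2 -0.040, and Cox7a2 was 0.014 as the mean of its rows and 0.037 on the more variable row. Centring moves the change of every gene by the same amount: the median over all genes was -0.074 with centring, against -0.01 in the main fit. The cause of the other shifts was not tested. Deviations from the group means correlated by 0.011, 0.019 and 0.036 within a replicate number, and by -0.054 to 0.036 across numbers. With 3 arrays a group these correlations cannot decide whether pools of equal number share animals. With the replicate block 6 members rose and 17 fell.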

Other observations

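Another row of the array, annotated to both Ndufa10 and its close copy Ndufa10l1, was left out of the comparison because it names 2 genes. It had 10.17, 10.20 and 10.10 on day 1, against 9.96, 10.02 and 9.98 on day 0, a change of 0.17 ± 0.06 (limma over all rows, adjusted p = 0.0743). The row of Ndufa10 alone had 6.67, 6.59 and 6.84 on day 1, against 6.36, 7.20 and 6.83 on day 0, and its day 0 SD of 0.42 was the largest among the members in either group.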
